A study of Mus musculus with 52 samples.

Results

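The proteasome genes of the mouse were followed across 8 tissues of Tug1-/- and wild-type mice. Genes were taken by name and type: all protein-coding genes of the 2 deposited tables whose symbol starts with Psma to Psmg and a number. The rule found 50 genes among 39144 genes listed in either table, of which 20138 are protein coding. Of the 50, 14 form the standard 20S core (7 alpha subunits, 4 structural and 3 catalytic beta subunits), and 17 form the 19S cap (6 ATPases and 3 other subunits of the base, and 8 lid subunits). A further 3 encode the inducible catalytic subunits of the immunoproteasome, 1 the thymus-type subunit Psmb11 and 1 the testis-type alpha subunit Psma8. The remainder are 5 activator genes, the inhibitor Psmf1, 7 assembly chaperones and Psmc3ip, which shares the name stem of an ATPase but encodes a meiotic recombination factor (Hop2) and no proteasome subunit.

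RNA-seq was done on male Tug1-/- mice (allele Tug1_tm1.1Vlcg), in which a lacZ cassette takes the place of the Tug1 gene body, and on wild-type mice. The means read here cover 4 wild-type, 4 Tug1-/- and 3 rescue testes, 3 wild-type and 2 Tug1-/- prostates, and 3 samples of each genotype for MEFs (mouse embryonic fibroblasts at passage 2), spleen, liver, heart and eyes. Rescue mice were Tug1-/- and also carried tg(Tug1), a Tug1 transgene that lacks part of the 5' region and answers to doxycycline through CAGs-rtTA3, an activator driven in most cell types, and they were fed a doxycycline diet. All groups had a mixed C57BL/6J/129S6 background. The tissues and MEFs of both genotypes are labelled N3-C57BL/6J without Neo. In testes the wild-type mice are labelled C57BL/6J without Neo, and the Tug1-/- and rescue mice C57BL/6J with Neo and LacZ, so that Neo and genotype cannot be told apart there. Brain values come from libraries outside the series, whose number is not used here. Ages are not given in the labels.

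Each table holds 1 mean per gene and group, in TPM, the part that a gene contributes to the transcripts of a library once its length is taken into account. No value of a single mouse was available, so no standard deviation or test could be computed from the expression values, and every ratio below is a difference between 2 means given without their error. Depth per sample is unknown. Outside testes the mean normalized count of a gene shows how many reads lay behind it: the median over the proteasome genes that passed the filter ran from 1229 in brain to 4311 in MEFs, and the lowest value was 7.89, for Psma8 in brain. A gene entered a comparison with at least 1 TPM in either group, and a ratio between groups is log2 after adding 0.1 TPM. A gene was counted as higher or lower when the means differed by over 1.2-fold. Ratios of 1 subunit to another within a group were taken with no TPM added and no minimum. Tug1 itself was at 0.0825% to 0.512% of the wild-type mean in Tug1-/- samples of 7 tissues, at 2.21% in Tug1-/- testes and at 4.003% in rescue testes. The marker genes of each labelled tissue were present, such as Prm1 at 14339 TPM in testes and Myh6 at 4692 TPM in heart.

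The proteasome degrades proteins tagged with ubiquitin. Its barrel-shaped core carries 3 pairs of active sites, made by Psmb5, Psmb6 and Psmb7, and the 19S cap binds, unfolds and feeds in the substrates. Interferon replaces the 3 catalytic subunits with Psmb8, Psmb9 and Psmb10, which favours peptides for antigen presentation and is typical of lymphoid tissue, while male germ cells use Psma8 in place of Psma7 together with the activator Psme4 (PA200). Subunit genes are also raised together by the factor Nfe2l1 when proteasome activity falls short.

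Short stretches before the start sites were searched for elements known from proteasome and interferon genes. RefSeq promoters (GRCm38.p6) were matched for 42 of the 50 genes, with 45 start sites, and 250 bases before each start were searched on both strands. The ETS core CCGGAAG was before at least 1 start of 9 of 25 core and 19S genes (36%), against 7.83% of all 27025 genes counted in the same way. The 27025 were not chosen by gene type or expression level, whereas the 25 are protein coding and broadly expressed. A background matched for these traits was not counted. The antioxidant response element TGACNNNGC, the type of element that Nfe2l1 binds, was in 4 of the 25 (16.0% against 11.5% of all genes), and the CCAAT box in 10 of the 25 (40% against 37.5%). The interferon-gamma type element TTCNNNGAA was in none of the 25 and in 1 of 6 inducible genes, Psmb8 (16.7% against 8.13% of all genes). That match lies before a downstream RefSeq start, inside the Psmb8 gene as annotated for these tables (chr17:34197721-34201454, plus strand). The windows of Psmb9 and Psme1, also among the 6, and of Psmd13, among the 25, likewise lay inside those genes as annotated. So did those of Psmb11, Psmd5, Psmd9 and Psmf1 and the downstream windows of Psma6 and Psmc2, and other windows overlapped their genes in part. The counts thus describe bases before RefSeq starts, which are not always the starts of the genes measured here. The Psmc1 stretch shown lies inside the annotated gene, and the Psme4 stretch reaches the first bases of its gene. The interferon-stimulated element GAAANNGAA was in 2 of the 25, Psmb3 and Psmd4 (8% against 8.18%), and in none of the 6. A match is a description of letters and not a shown binding site, and the absence of one says only that these letters were not in the window. Examples of TTCNNNGAA, TGACNNNGC and the ETS core follow, chosen since they lie before Psmb8, before 2 catalytic subunits, and before 3 of the 9 standard genes and the activator Psme4, which is not one of the 9, on the strand of the gene and with the match in capitals, where CTTCCGG is the ETS core read on the other strand.
Psmb8, chr17:34198088-34198116, plus strand, TTCNNNGAA 97 bases before the start: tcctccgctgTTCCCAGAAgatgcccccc
Psmb5, chr14:54618024-54618052, minus strand, TGACNNNGC 47 bases before the start: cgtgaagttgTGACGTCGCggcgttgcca
Psmb6, chr11:70525338-70525356, plus strand, TGACNNNGC 9 bases before the start: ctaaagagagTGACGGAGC
Psmc1, chr12:100110164-100110190, plus strand, ETS core 28 bases before the start: ggtggatgcaCTTCCGGcggtggcgat
Psmd2, chr16:20651616-20651642, plus strand, ETS core 26 bases before the start: ccgcagggcgCTTCCGGtctggaggac
Psmd11, chr11:80428594-80428614, plus strand, ETS core 11 bases before the start: gagggcgggtCTTCCGGgtgt
Psme4, chr11:30771712-30771738, plus strand, ETS core 53 bases before the start: tggccccgccCCGGAAGtgacttgagg

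In wild-type samples the 31 standard core and cap genes were broadly expressed, with no mean under 20.1 TPM in any tissue. Their summed level ran from 2291 TPM in heart to 6739 TPM in MEFs, with 4085 TPM in testes. MEFs held the highest mean for 27 of the 31 genes and heart the lowest for 14. The TPM of each tissue were normalized separately, and in whole tissues fewer cells of a type and less RNA per cell cannot be told apart.

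**Figure D1:**
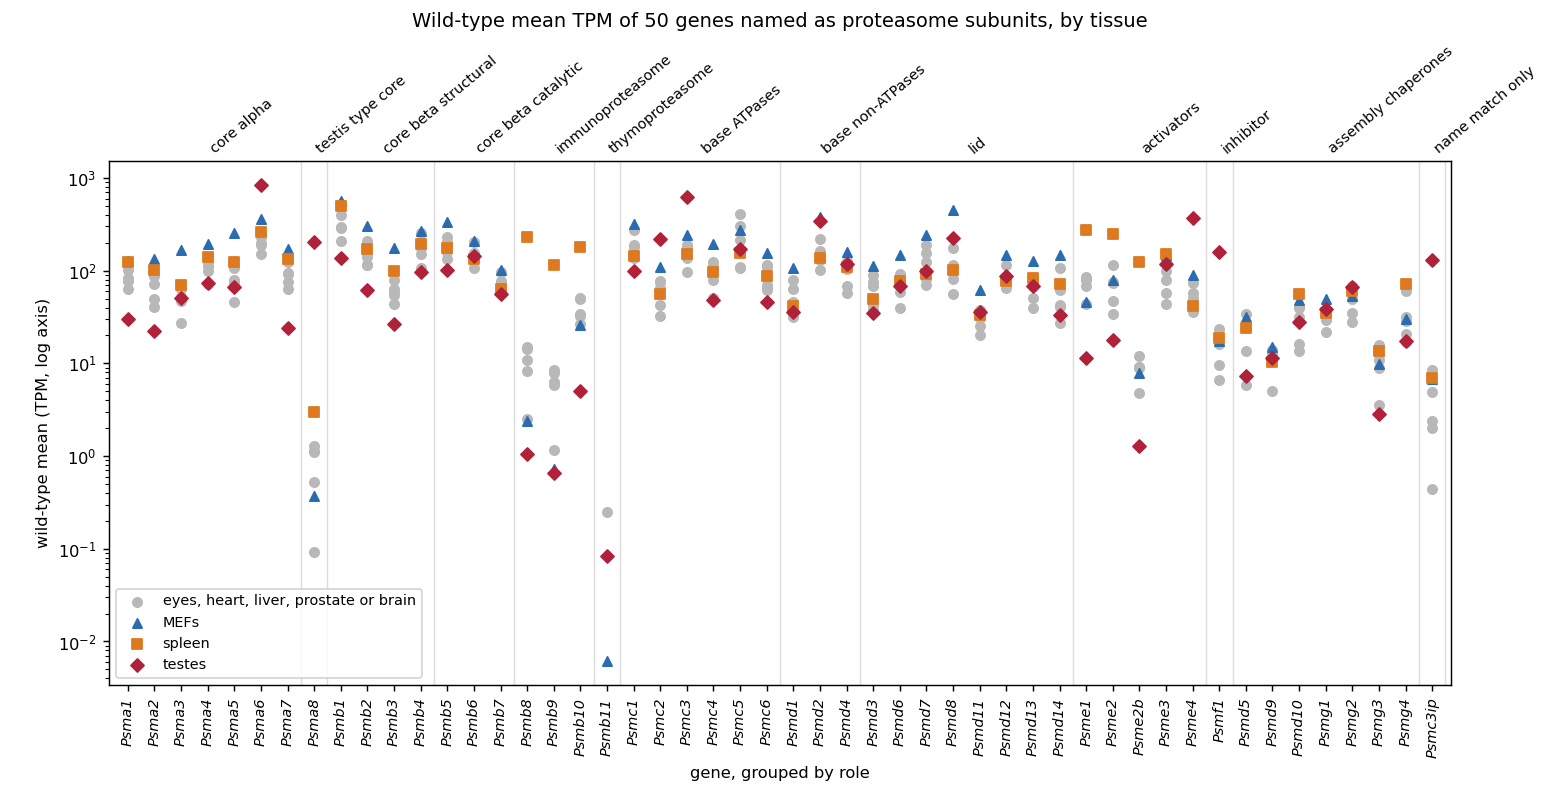
Wild-type mean TPM (log axis) of the 50 genes, grouped by role, with 1 point per tissue. Red diamonds mark testes, orange squares spleen, blue triangles MEFs and grey circles the other 5 tissues. Testes lie far above the rest for Psma8, Psme4, Psmf1 and Psmc3ip and below the rest for Psmb8, Psmb9 and Psmb10, while spleen is highest for the inducible genes.

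The levels of the alpha and cap subunits were spread more widely in testes than in the other 7 tissues. The 7 standard alpha subunits, which fill each outer ring of the core in equal numbers, spanned 37.3-fold in wild-type testes, from 22.5 TPM for Psma2 to 840 TPM for Psma6, against 2.82-fold to 5.49-fold in the other tissues. This span rested on Psma6: without it, a comparison added after the values were seen, the other 6 spanned 3.27-fold in testes and 1.55-fold to 3.03-fold elsewhere. Over all 31 standard genes the coefficient of variation of the mean TPM was 134% in testes and 52.2% to 71.6% elsewhere, and without Psma6 it was 111% and 52.8% to 73.3%. The beta subunits did not share this: the coefficient was 59.0% in testes for the 4 structural ones, against 51.3% (MEFs) to 73.1% (spleen) elsewhere, and 43.7% for the 3 catalytic ones, against 33.8% (liver) to 53.9% (MEFs). Of the 31, 3 were highest in testes and 13 were lowest there. The 3 highest, named after their values were seen, were the alpha subunit Psma6 (840 TPM, against 151 to 357 TPM elsewhere) and the ATPases Psmc3 (618 against 97.6 to 242 TPM) and Psmc2 (219 against 32.7 to 108 TPM). Psmc3 overlaps Slc39a13 on the opposite strand over 4579 bases, and a use of strand in the counting is not stated. Slc39a13 was at 19.96 TPM in wild-type testes.

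Psma8 marked the testis-type core. Its wild-type mean was 203 TPM in testes, 3.01 TPM in spleen, 1.29 TPM in heart, 1.15 TPM in liver, 1.09 TPM in brain, 0.522 TPM in eyes, 0.371 TPM in MEFs and 0.0933 TPM in prostate. Testes were 67.4-fold above spleen, which held the highest mean of the other 7 tissues. Psma7, the ubiquitous subunit in the same ring position, ran the other way, from 23.9 TPM in testes to 173 TPM in MEFs. Psma8 thus made 89.5% of the summed Psma7 and Psma8 TPM in wild-type testes and at most 2.20% in each other wild-type tissue. The order of Psma7 was not particular to it. Psma1 (30.2 to 127 TPM), Psma2 (22.5 to 132 TPM) and the 4 structural beta subunits were also lowest in testes and highest in MEFs. The activator Psme4, which caps cores in male germ cells, was 371 TPM in wild-type testes against 36.1 TPM (brain) to 90.7 TPM (MEFs) elsewhere. Psmf1, the inhibitor PI31, was 159 TPM in testes, 6.81-fold above the next tissue. Psmc3ip was 129 TPM in testes and 0.436 to 8.46 TPM elsewhere.

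The inducible subunits had the opposite distribution. Psmb8 was 228 TPM in wild-type spleen, 14.99 TPM in eyes, 14.4 TPM in liver, 10.9 TPM in heart, 8.25 TPM in prostate, 2.51 TPM in brain, 2.41 TPM in MEFs and 1.05 TPM in testes. Psmb9 was 116 TPM in spleen, between 5.84 and 8.39 TPM in eyes, heart, liver and prostate, and 1.16, 0.732 and 0.651 TPM in brain, MEFs and testes. Psmb10 was 180 TPM in spleen, between 26 and 51.3 TPM in 6 tissues and 5.06 TPM in testes. All 3 were highest in spleen and lowest in testes. The 3 constitutive partners were highest in MEFs and not in spleen, though Psmb5 and Psmb7 were also lowest in testes. Psmb5 was 101 TPM in testes, 176 TPM in spleen and 335 TPM in MEFs. Psmb6 ran from 106 TPM (heart) to 211 TPM (MEFs), and Psmb7 from 56.0 TPM (testes) to 102 TPM (MEFs).

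Set against its constitutive partner, an inducible subunit exceeded it in spleen alone among wild-type tissues, for Psmb8 over Psmb5 (ratio 1.295) and Psmb10 over Psmb7 (2.81). Psmb9 over Psmb6 was 0.870 in spleen. In testes the ratios were 0.0104, 0.00454 and 0.0905 for the 3 pairs, and in MEFs 0.00718, 0.00347 and 0.254. Inducible subunits made 58.4% of the summed catalytic TPM in spleen, 2.20% in testes, 4.299% in MEFs and between 8.93% and 18.1% in the other 5 tissues, where Psmb10 was the main part. Gm16156 lies antisense across Psmb10 (0.118 TPM in wild-type testes), so that reads of the pair cannot be told apart without strand, and Psmb9 overlaps Tap1 by 212 bases on the opposite strand. Psmb11, the thymus subunit, was listed at 0.0843 TPM in testes, 0.00611 TPM in MEFs and 0.246 TPM in brain, and it passed the filter in no comparison.

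**Figure D2:**
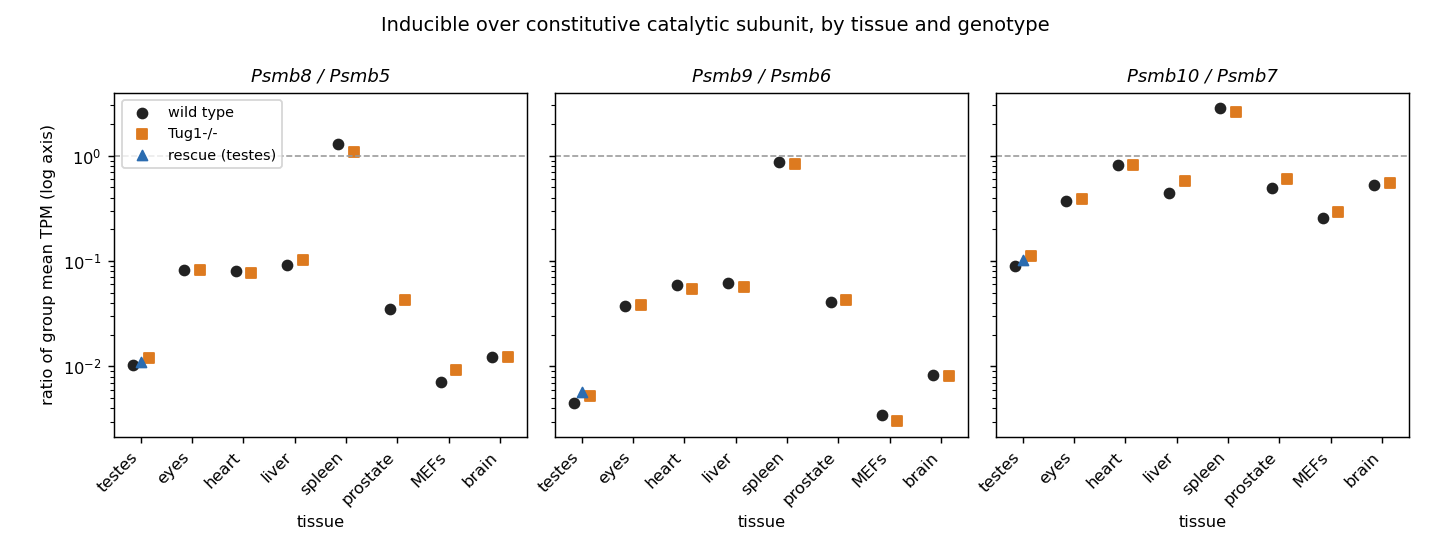
Ratio of group mean TPM (log axis) of each inducible catalytic subunit over its constitutive partner, in 3 panels, for 8 tissues. Circles are wild type, squares Tug1-/- and triangles rescue testes, each 1 ratio of means without an error bar. In each panel the tissues differ far more than the genotypes, and the wild-type spleen ratios are 1.295, 0.870 and 2.81.

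Activators followed the same split. Psme1 and Psme2, which form the interferon-induced PA28 ring, were 276 and 248 TPM in wild-type spleen and 11.5 and 17.98 TPM in testes. Psme2b, a copy of Psme2, was 124 TPM in spleen, 1.28 TPM in testes and at most 11.99 TPM in the other tissues, and reads shared by the 2 near-identical genes make both values uncertain. Psme3, the nuclear PA28 gamma, had no such pattern, with 44.0 TPM in liver, 117 TPM in testes and 153 TPM in spleen. The ratio of Psme4 to Psme1 was 32.2 in testes, 1.98 in MEFs and under 1 in the other 6 wild-type tissues. Over the 8 wild-type means, Spearman's rho was 0.79 for Psmb8 with Psmb9, 0.60 for Psmb8 with Psmb10 and 0.67 for Psmb9 with Psmb10. It was 0.76 for Psme1 with Psmb8, 0.52 for Psme2 with Psmb8, 0.69 for Psme1 with Psme2, 0.79 for Psme2 with Psme2b, -0.10 for Psmb5 with Psmb8, -0.36 for Psmb6 with Psmb9, 0.10 for Psma8 with Psme4 and -0.57 for Psma7 with Psma8. These values rest on 8 tissue means each normalized on its own and describe the order of tissues only.

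The comparison of Tug1-/- with wild type addresses what loss of the locus does to this machinery, and the means of the genes differed little. Over the 8 tissues, 386 pairs of a gene and a tissue passed the filter and 13 (3.37%) differed by over 1.2-fold, 10 higher and 3 lower in Tug1-/-, while in the same comparisons 16.2% to 34.8% of all genes did. Those 13 pairs belong to 9 genes. The largest fold, 1.41, was Psma8 in brain, which passed the filter through wild type alone (mean normalized count 7.89) and was not past 1.2-fold with a pseudocount of 1 TPM, and the next was Psmc3ip in spleen (1.39). Of the 248 pairs of a standard core or cap gene and a tissue, 1 was past 1.2-fold, the lid subunit Psmd11 in heart. Fewer of the well expressed genes differed: among those with at least 10 TPM in either group, 5 of 352 pairs of a proteasome gene and a tissue and 2.98% (brain) to 24.6% (spleen) of all genes were past 1.2-fold.

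**Figure D3:**
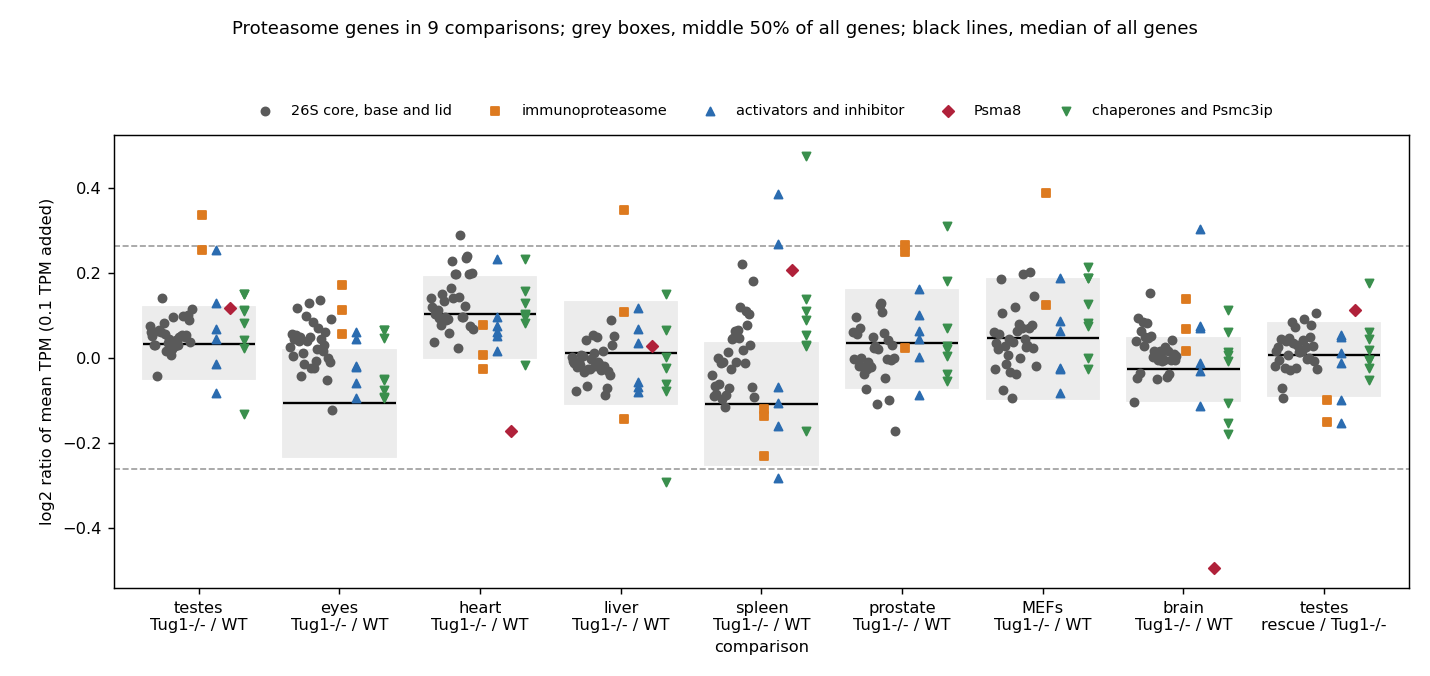
Log2 ratio of mean TPM for each proteasome gene that passed the filter, in 8 comparisons of Tug1-/- with wild type and 1 of rescue with Tug1-/- testes. Colours and shapes mark roles, grey boxes the middle 50% of all genes, black lines their median and dashed lines 1.2-fold. The 31 standard genes (grey circles) cross a dashed line in heart only, by 1 gene, and the 13 points past it in the first 8 comparisons are mostly inducible, activator or Psmc3ip points.

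In testes, 48 of the 50 genes passed the filter (all but Psmb9 and Psmb11). Their median log2 ratio was 0.06, with 44 above 0, against 0.03 for all 22378 genes, of which 61.7% were above 0. Of the standard genes 30 of 31 were above 0, with a median of 0.05 and a range of -0.04 (Psma6) to 0.14 (Psmb3). The highest was the inducible subunit Psmb10, at 5.06 and 6.41 TPM in wild-type and Tug1-/- testes (log2 ratio 0.33). It was the 1 gene counted as higher, against 10.2% of all genes, and none was counted as lower, against 8.24% of all genes. Psme1 (11.5 and 13.8 TPM, 0.25) lay just under 1.2-fold. Psmb8 (1.05 and 1.27 TPM, 0.25) lay under it after 0.1 TPM was added and over it with a pseudocount of 0.01 TPM, which makes 2 genes higher in testes. Psma8 was 203 and 220 TPM in wild-type and Tug1-/- testes (0.12), Psma7 23.9 and 25 TPM (0.06), and Psma8 made 89.5% and 89.8% of their sum. Psme4 was 371 and 367 TPM (-0.02) and Psmf1 159 and 150 TPM (-0.08). The spermatocyte list, genes of the cells that carry Psma8, had a median of 0.09 over 8 genes and the spermatid list -0.04 over 10, with no gene of either past 1.2-fold.

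Rescue testes are compared with the same Tug1-/- libraries, so both testes comparisons share them and their ratios are not independent. No proteasome gene was past 1.2-fold in rescue over Tug1-/- testes, in either direction, against 5.76% of all genes higher and 9.9% lower. The median was 0.01 for the 48 genes that passed and 0.01 for all 22180 genes. Psmb10 was 5.06, 6.41 and 5.98 TPM in wild-type, Tug1-/- and rescue testes, Psmb8 was 1.05, 1.27 and 1.14 TPM, and Psmb9 was 0.651, 0.767 and 0.877 TPM. Psme1 was 11.5, 13.8 and 12.4 TPM and Psme2 17.98, 19.7 and 18.4 TPM. Rescue means thus lay between the other 2 groups for Psmb8, Psmb10, Psme1 and Psme2 and above them for Psmb9. Psma8 was 203, 220 and 238 TPM and made 91.0% of the summed Psma7 and Psma8 TPM in rescue testes.

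**Figure D4:**
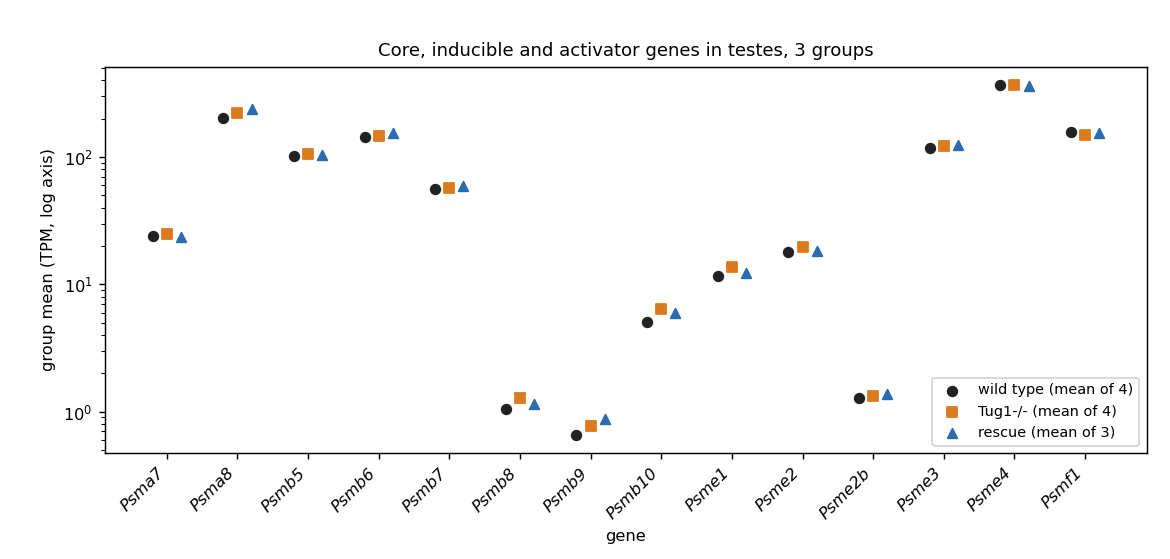
Group mean TPM (log axis) of 14 core, inducible and activator genes in testes. Circles are wild type, squares Tug1-/- and triangles rescue, without error bars since 1 mean per group was deposited. The 3 groups lie close together for each gene over a range from 0.651 TPM (Psmb9) to 371 TPM (Psme4).

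In heart all 31 standard genes were above 0, with a median of 0.12, but the median of all 14004 genes was 0.10 and 74.8% of them were above 0. Psmd11, a lid subunit, was 20.1 and 24.5 TPM in wild-type and Tug1-/- heart (0.29), the 1 proteasome gene counted as higher, against 12.5% of all genes. None was counted as lower, against 6.13% of all genes. After ratios were centred on the median of all genes, 18 of the 31 were above 0, no gene was counted as higher (5.75% of all genes) and 1 as lower (9.78% of all genes), Psma8 at 1.29 and 1.13 TPM. Psme4 was 74.1 and 87.0 TPM in wild-type and Tug1-/- heart (0.23), its highest ratio of the 8 tissues.

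In eyes no proteasome gene was past 1.2-fold, against 8.16% of all genes higher and 20.8% lower. The all-gene median was -0.11 there and the median of 48 proteasome genes 0.03. Once centred, 30 of 31 standard genes were above 0 with a median of 0.15, and 1 proteasome gene was counted as higher (12.6% of all genes) and none as lower (11.6%). That gene was Psmb10, at 26.9 and 30.4 TPM in wild-type and Tug1-/- eyes.

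Spleen was the tissue with the most proteasome genes past 1.2-fold, 3 higher (10.9% of all genes) and 1 lower (23.9% of all genes). Psme3 was 153 and 199 TPM in wild-type and Tug1-/- spleen (0.39), Psmf1 18.9 and 22.8 TPM (0.27) and Psmc3ip 7.03 and 9.81 TPM (0.48), while Psme2b was 124 and 102 TPM (-0.28). The core and the cap lay on different sides of 0: 2 of 14 core genes were above 0 with a median of -0.06, and 13 of 17 cap genes with a median of 0.05. The all-gene median was -0.11, and centred on it 30 of the 31 standard genes were above 0, 6 proteasome genes were counted as higher (15.5% of all genes) and none as lower (13.5%). The 3 added to those above were Psmd11 (33.6 and 39.2 TPM), Psmd7 (91.2 and 103 TPM) and Psma8 (3.01 and 3.49 TPM). All 3 inducible subunits were lower in mean in Tug1-/- spleen, Psmb8 at 228 and 194 TPM (-0.23), Psmb9 at 116 and 107 TPM (-0.12) and Psmb10 at 180 and 164 TPM (-0.14), as were Psme1 at 276 and 247 TPM (-0.16) and Psme2 at 248 and 231 TPM (-0.11). Centred, the inducible subunits had a median of -0.03. The lymphocyte list summed to 4875 and 3729 TPM in wild-type and Tug1-/- spleen, with 5 of 9 genes lower by over 1.2-fold, and its part in these values was not tested.

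In liver, 1 gene was counted as higher (12.9% of all genes) and 1 as lower (10.1%). Psmb10 was 33.8 and 43.0 TPM in wild-type and Tug1-/- liver (0.35), and Psmg3, an assembly chaperone, was 8.91 and 7.25 TPM (-0.29). Psmb8 was 14.4 and 15.5 TPM (0.11) and Psmb9 was 7.95 and 7.19 TPM (-0.14), so that the inducible subunits did not share a direction. The standard genes had a median of -0.01, with 11 of 31 above 0, and all 12121 genes a median of 0.01.

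In prostate, where Tug1-/- is the mean of 2 samples, 2 genes were counted as higher (15.3% of all genes) and none as lower (8.4%). Psmb8 was 8.25 and 9.94 TPM in wild-type and Tug1-/- prostate (0.27), and Psmc3ip was 2.00 and 2.50 TPM (0.31). With a pseudocount of 1 TPM neither was past 1.2-fold, and after centring Psmc3ip alone was. Psmb10 was 32.7 and 38.9 TPM (0.25) and Psmb9 was 8.39 and 8.53 TPM (0.02). In MEFs, 1 gene was counted as higher (16.1% of all genes) and none as lower (12%), namely Psmb8 at 2.41 and 3.18 TPM (0.39), with a mean normalized count of 78.9. Psmb10 was 26 and 28.4 TPM (0.12), and Psmb9 was under 1 TPM in both genotypes. The lid subunit Psmd3 (0.20) had the highest ratio of the standard genes in MEFs, where their median was 0.04 against 0.05 for all genes. In brain, 1 gene was counted as higher (6.26% of all genes) and 1 as lower (9.9%). Psme2b was 4.84 and 5.99 TPM (0.30) and Psma8 was 1.09 and 0.748 TPM (-0.49), with mean normalized counts of 19.3 and 7.89, and neither was past 1.2-fold with a pseudocount of 1 TPM. The standard genes had a median of 0.01 in brain and lay between -0.10 (Psma1) and 0.15 (Psmb5).

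As a summary of the catalytic exchange, the geometric mean of Psmb8, Psmb9 and Psmb10 was set over that of Psmb5, Psmb6 and Psmb7. The log2 of this ratio was higher in Tug1-/- than in wild type in 6 of 8 tissues and lower in 2. Brain, at 0.01, was below 0 with sums of TPM (-0.02) or with Psmb8 over Psmb5 alone (-0.01), which leaves 5 of 8. The difference was 0.25 in testes, 0.20 in prostate, 0.14 in liver, 0.13 in MEFs, 0.03 in eyes, 0.01 in brain, -0.06 in heart and -0.13 in spleen. For scale, wild-type spleen and wild-type testes stood at 0.55 and -5.95. In testes it was -5.95 in wild type, -5.70 in Tug1-/- and -5.75 in rescue. The 3 pairs differed in the same direction in testes (0.22, 0.22 and 0.31), eyes, spleen and prostate and in mixed directions in heart, liver, MEFs and brain. In testes Psmb9 was 0.651 and 0.767 TPM in wild type and Tug1-/-, under the 1 TPM minimum, and Psmb8 was 1.05 and 1.27 TPM. In MEFs Psmb9 was 0.732 and 0.623 TPM, and its pair alone of the 3 was lower there. The testes difference and the mixed directions in MEFs thus rest in part on values near the floor.

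Markers of immune cells and of the interferon response differed beside the inducible subunits in some tissues and not in others. In testes, 11 of 12 macrophage genes passed the filter, 7 were higher by over 1.2-fold and the median was 0.34; the list summed to 742 and 771 TPM in wild-type and Tug1-/-, of which Aif1 alone made 617 TPM in wild type. Of 15 interferon and antigen presentation genes 13 passed there and 6 were higher, with a median of 0.25 and sums of 435 and 529 TPM. In liver 10 of 11 macrophage genes were higher (median 0.46, sums of 319 and 481 TPM), and 2 of 15 interferon genes were higher and 2 lower (median 0.07). In prostate 10 of 12 macrophage genes (median 0.62, sums of 287 and 450 TPM) and 7 of 15 interferon genes (median 0.10) were higher. In MEFs 8 of 11 macrophage genes were lower and 2 higher (median -0.38), while their sum was higher in Tug1-/- (660 and 714 TPM), with Lyz2 alone at 183 TPM in wild-type MEFs and a ratio of 0.90. In the same cells 11 of 14 interferon genes were higher and none lower (median 0.29, sums of 1554 and 1728 TPM). In heart the 5 lymphocyte genes that passed were all lower (median -1.07, sums of 47.1 and 23.6 TPM), beside ratios of 0.01, -0.03 and 0.08 for Psmb8, Psmb9 and Psmb10. In spleen all 9 passed and 5 were lower, as given above, and in the remaining comparisons at most 4 of the 9 passed. In prostate 2 of 3 were higher (median 0.32, sums of 6.46 and 7.68 TPM), and in liver 1 of 3 was higher and 1 lower (median 0.06). In eyes 1 of 4 (median 0.00) and in brain 1 of 2 (median -0.08) were lower. In testes (2 genes, median 0.16), MEFs (1 gene) and rescue (2 genes) none was past 1.2-fold. In eyes and heart 7 of 12 macrophage genes were higher in each (medians 0.36 and 0.28), with 1 lower in heart and with Psmb8 at 0.11 and 0.01. The interferon list had a median of -0.10 in eyes (2 higher and 2 lower), though its sum was higher in Tug1-/- (1321 and 1517 TPM), and a median of 0.19 in heart, with 15 of 15 genes above 0, against 74.8% of all genes, and 1 past 1.2-fold. In brain 1 macrophage gene was higher and 1 lower (median 0.10) and 4 of 14 interferon genes were higher (median 0.11). In rescue over Tug1-/- testes 2 macrophage genes were higher and 2 lower (median -0.04) and 2 of 13 interferon genes were lower (median -0.01, sums of 529 and 360 TPM). In spleen 1 of 12 macrophage genes was higher and 2 lower (median -0.07), and 1 of 15 interferon genes was higher and 2 lower (median -0.11). The medians of all genes stood at -0.11 in eyes, 0.10 in heart and -0.11 in spleen, and centred on them the interferon list had medians of 0.01, 0.09 and 0.00 and the macrophage list medians of 0.47, 0.18 and 0.04. In the other 5 tissues and in rescue the median of all genes was within 0.05 of 0. The shares of all genes counted as higher or lower in each tissue stand with its comparison above. No macrophage gene was listed at 0 in these groups. The part of either list in the values of Psmb8, Psmb9 and Psmb10 was not tested.

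**Figure D5:**
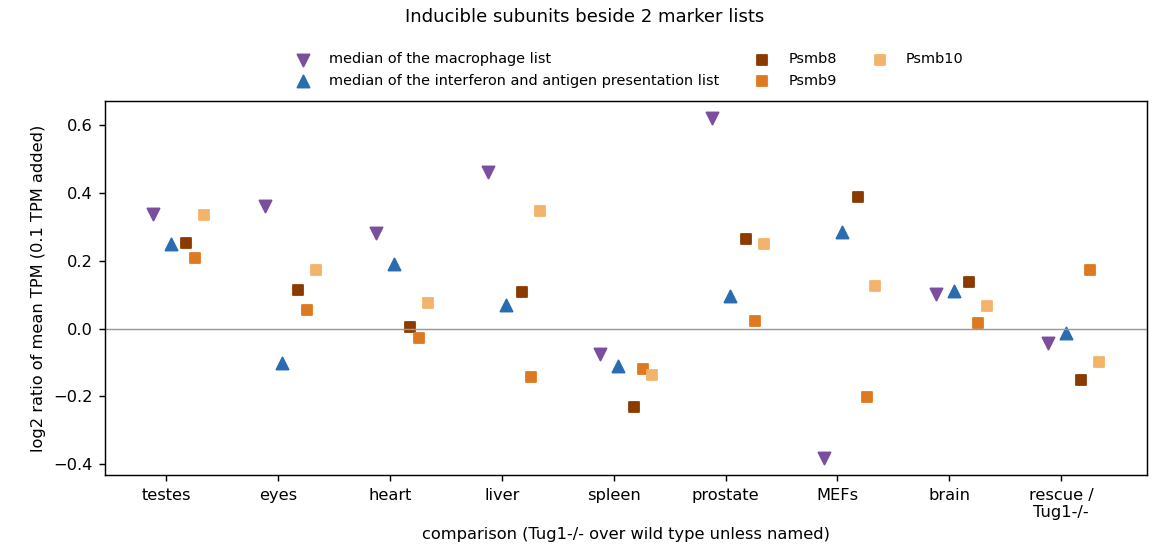
Log2 ratio of mean TPM for Psmb8, Psmb9 and Psmb10 (squares) beside the median ratio of the macrophage list (purple triangles) and of the interferon and antigen presentation list (blue triangles) in 9 comparisons. Psmb9 was under 1 TPM in both groups of the testes, MEFs and rescue comparisons. In MEFs the macrophage median (-0.38) and the interferon median (0.29) lie on opposite sides of 0, and in spleen all 5 points lie under 0, where the median of all genes was -0.11 and the list medians centred on it were 0.04 and 0.00.

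A list of 22 genes for ubiquitin, shuttle factors, deubiquitinases, proteasome assembly and Nfe2l1 had 20 members listed, all of which passed in each comparison. In testes, eyes and brain, and in rescue over Tug1-/- testes, none was past 1.2-fold. In the other 5 tissues 7 pairs were, all higher in Tug1-/-, at 1 or 2 of the 20 genes a tissue, against the 10.9% (spleen) to 16.1% (MEFs) of all genes counted as higher above, among them Ddi2 (0.37) and Ubqln1 (0.27) in heart, Fbxo7 (0.40) in spleen, Ubqln2 (0.38) in prostate and Ubqln4 (0.30) in MEFs. Nfe2l1, the factor that raises subunit genes, lay between -0.14 (spleen) and 0.20 (MEFs). Targets of the related factor Nfe2l2 had a median of 0.32 in MEFs with 4 of 7 higher (16.1% of all genes), 0.29 in heart with 4 of 6 higher (12.5% of all genes) and 0.27 in prostate with 4 of 7 higher (15.3% of all genes), beside medians of 0.04, 0.12 and 0.00 for the standard proteasome genes. Centred, the heart median was 0.19. Their median was 0.12 in spleen and 0.23 centred (3 higher and 1 lower of 7, against 10.9% and 23.9% of all genes), 0.00 in testes (1 higher and 1 lower of 7, against 10.2% and 8.24%), -0.02 in eyes (none past 1.2-fold), -0.03 in liver (1 of 6 higher, against 12.9%) and -0.06 in brain (none past 1.2-fold), and -0.07 in rescue over Tug1-/- testes (2 of 7 lower, against 9.9%).

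Across tissues, no standard gene kept 1 large direction. Psmd12 was the 1 standard gene above 0 in all 8 tissues, at 0.02 to 0.10, and it lay above the median of all genes in 6. Psmd11 had the highest median of the standard genes over 8 tissues (0.12) and lay above the median of all genes in 7 of them. Psmb8 and Psmb10 were each above 0 in 7 of 8 tissues, all but spleen, with medians of 0.13 and 0.15, and above the median of all genes in 6, while Psmb9 was above 0 in 3 of the 6 tissues where it passed. Of the 50 genes, 20 overlap another annotated gene, 16 of them one on the opposite strand, and their values carry that uncertainty. Pseudogenes of Psmb6 and Psmb7 with entries of their own had at most 0.621 TPM in any group.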

How the data were processed

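The processed tables were read as deposited. Libraries were made from polyadenylated RNA, and CASAVA 1.8.2 is named in the submitters' processing notes. The authors aligned reads to the mouse genome (GRCm38/mm10) with STAR, counted uniquely mapped reads on GENCODE vM16 genes with featureCounts, and dropped genes for which no replicate reached 3 reads. The versions of STAR and featureCounts, and whether strand was used, are not given in the sources used here. The authors deposited expression as the mean TPM of each group and, outside testes, the mean normalized count of each gene over both genotypes, which is a signal and not a raw count. The tables also hold the authors' own comparisons (fold changes, statistics and p-values from DESeq2 and fdrtool), which were not used. The labels' descriptions exchange the names of the 2 tables, and tissues were taken from the tables' own columns.

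Groups follow the labels. With 1 mean per group, the expression values allow no test, standard deviation or interval, and the 6 samples of F1 hybrid testes were not analysed here. Ratios between groups are log2 of mean TPM plus 0.1, for genes with at least 1 TPM in either group, and the difference counted is 1.2-fold. Ratios of 1 subunit to another within a group, and the inducible over constitutive summary, used no pseudocount and no minimum. With 0.1 TPM added, the difference of that summary in testes was 0.23 in place of 0.25. Values are named for the catalytic subunits, Psma7, Psma8, Psmb11, the activators and each gene past 1.2-fold (at most 5 a comparison). Others named for extreme values, among them Psma6, Psmc2, Psmc3, Psmd3, Psmd7 and Psmd12, were chosen after their values were seen, as was the second background of genes with at least 10 TPM. The genes and lists were chosen with earlier results of these data known. Alternatives were pseudocounts of 1 and 0.01 TPM, no minimum or 10 TPM, folds of 1.1 and 1.5, centring on the median of all genes, the 31 core and cap genes alone, sums in place of geometric means, and Psmb8 over Psmb5 alone. Promoters came from RefSeq (GRCm38.p6). The ratio and counting steps were tested on simulated data. Python 3.11.15, numpy 2.4.6, pandas 2.3.3 and matplotlib 3.10.9 were used. Values of some genes outside the proteasome family are not reported here.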

Additional observations from a re-analysis of the deposited data

How the results depend on the processing

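The median log2 ratio of the proteasome genes moved by less than 0.1 in all 9 comparisons with pseudocounts of 1 or 0.01 TPM, with no minimum or a minimum of 10 TPM, and with the 31 core and cap genes alone. Centring on the median of all genes moved it by over 0.1 in 3 tissues, to 0.14 in eyes, 0.00 (-0.0027) in heart and 0.11 in spleen, since the medians of all genes were -0.11, 0.10 and -0.11 there. The inducible over constitutive difference moved by over 0.1 with sums in place of geometric means in liver (0.27), and with Psmb8 over Psmb5 alone in spleen (-0.24) and MEFs (0.36). Of 126 counts of genes past a fold under these alternatives, 45 moved by over 1.5 times or to or from 0, of which 25 with folds of 1.1 or 1.5. With a pseudocount of 1 TPM the 2 genes higher in prostate and the 1 higher and 1 lower in brain went to 0, and with 10 TPM as the minimum so did the 1 higher in testes, the 2 in prostate, the 1 in MEFs, the 1 lower in liver and both in brain, since those genes lay under it. No paired analysis was possible because the tables hold 1 mean per group, and for the same reason leaving out a replicate could not be run. Calls gained were the second gene higher in testes with a pseudocount of 0.01 TPM, and with no minimum a second gene higher in testes and in MEFs and 1 lower in prostate and in rescue, each under 1 TPM in both groups. Centring added 1 higher in eyes, 1 lower in heart and 3 higher in spleen. A fold of 1.1 raised the counts in every comparison, most in heart (1 to 16 higher) and MEFs (1 to 9 higher). The share of all genes past 1.1-fold was not counted, so these counts have no background beside them. The upper quartile of the log2 ratios of all genes was 0.19 in heart and 0.19 in MEFs. The error of each mean was not available from the expression values, and the authors' own statistics were not used, so whether a 1.2-fold difference exceeds the spread between mice is not addressed here.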
